A study of Mus musculus with 6 samples.

Results

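The genes studied here encode the proteins of both ribosomes of the cell, the cytosolic and the mitochondrial. They were chosen by gene symbol: Rpl or Rps followed by a digit for the cytosolic ribosome, with the Rps6k kinases left out, and Mrpl or Mrps followed by a digit for the mitochondrial ribosome. Of 8566 genes named on the array and past the detection filter, 123 were members, measured by 180 probes. Each gene was represented by its probe with the highest mean log2 signal, and 40 genes had more than 1 probe. The members comprised 30 genes of the cytosolic large subunit, 22 of the cytosolic small subunit, 44 of the mitochondrial large subunit and 27 of the mitochondrial small subunit. The RefSeq gene table lists 165 protein-coding mouse genes under the same rule (53, 34, 49 and 29 in the same order), so the cytosolic ribosome was covered less fully than the mitochondrial one. All 123 members were detected on all 6 arrays. Rps19bp1 fits the symbol rule, but it encodes a protein that binds Rps19 and is not a part of the mature ribosome.

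MC3T3-E1 osteoblastic cells, an established line of pre-osteoblasts from mouse calvaria, were exposed to pulsatile fluid flow on an orbital shaker in regimens that lasted 1 h. The cells were kept without flow (NF), under continuous flow (CF), or under rest-inserted flow (RF), in which bouts of flow alternated with longer periods without it. RF cells therefore had less flow in total than CF cells, so the regimens did not differ by rest alone. RNA was taken at once (0 h) or after 1 h of further static culture (1 h). Each of these 6 conditions was measured on 1 array, which held RNA pooled from 3 experiments, and the cells came from a single clone of the line, so no condition had a replicate array. All p-values therefore measured only the spread between these arrays around a fitted model. In RNA pooled from whole cultures, fewer cells of a type and less RNA per cell cannot be told apart.

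The cytosolic ribosome is built in the nucleolus and cytoplasm from nuclear-encoded proteins and ribosomal RNA, and it translates almost all cellular mRNA. The mRNAs of its proteins begin with a 5′ terminal oligopyrimidine (TOP) tract, through which TOR signalling controls their translation, so that their protein output can change with no change in mRNA level. The mitochondrial ribosome descends from a bacterial one. Its proteins are also encoded in the nucleus and imported, and it translates only the few mRNAs of the mitochondrial genome, which encode subunits of the respiratory chain and the ATP synthase. Osteoblasts secrete large amounts of collagen-rich matrix, a task that draws on both protein synthesis and respiration.

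The arrays detected between 13472 and 14426 probes, and the median signal of the detected probes lay between 105.2 and 122.6. Of 9 osteoblast markers 6 passed the detection filter and 5 were detected on all 6 arrays, among them Col1a1, Sparc and Sp7. No adipocyte or endothelial marker of 5 each passed, and of the macrophage and muscle markers 1 of 5 each passed, on 1 array (Csf1r) and on 2 arrays (Myog). Of 5 chondrocyte markers, Col2a1 alone passed, on all 6 arrays.

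A TOP tract appears as a run of C and T at the start of a gene. Windows of 30 bases are printed for 8 members, to show such starts beside those of the mitochondrial genes on which the results turn. They run 5′ to 3′ with the annotated start as the 16th base, and capitals mark the unbroken run of C and T that covers that start. They come from the RefSeq promoter table of build GRCm38.p6. The first 4 belong to the cytosolic ribosome: Rps6 at chr4:86857353-86857382 (minus strand), Rps10 at chr17:27635230-27635259 (minus strand), Rpl28 at chr7:4792950-4792979 (plus strand) and Rpl7a at chr2:26910792-26910821 (plus strand). The other 4 belong to mitochondrial genes that were lower on all flow arrays than on both no flow arrays: Mrpl52 at chr14:54426894-54426923 (plus strand), Mrpl44 at chr1:79776003-79776032 (plus strand), Mrpl49 at chr19:6057741-6057770 (minus strand) and Mrps33 at chr6:39810922-39810951 (minus strand).
Rps6: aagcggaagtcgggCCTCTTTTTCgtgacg
Rps10: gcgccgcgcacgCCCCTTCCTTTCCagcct
Rpl28: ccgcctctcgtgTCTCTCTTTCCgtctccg
Rpl7a: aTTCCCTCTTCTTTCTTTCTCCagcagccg
Mrpl52: tgccggggccacgCCCacttccggttccct
Mrpl44: ccatgctccctcttcggtgtcctccagcgt
Mrpl49: gcgcgcgcatatgacactcagttgaggcgc
Mrps33: ttccgcctctctcctgctctctggagctgg

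Promoters were found in that table for 108 of the 123 members, 45 cytosolic and 63 mitochondrial. A run of at least 8 C or T over the start was present in 10 of 45 cytosolic genes (22.2%) and in 0 of 63 mitochondrial genes, against 4.28% of the 7013 named genes with a promoter and 3.82% of all 27025 in the table. The stricter pattern of a C at the annotated start and then 4 C or T was present in 7 of 45 cytosolic genes (15.6%). It was present in 0 of 63 mitochondrial genes and in 2.41% of named genes. Rpl7a, printed above, has the run but not this pattern, since its annotated start is a T. Annotated starts can lie some bases from the start a cell uses, so a missing run says only that these letters do not cover the annotated base. The 6-base sequence CGGAAG, searched on both strands of 300 bases (250 before the start and 50 after), is the core recognised by ETS family factors such as GABP. It was present in 73.3% of cytosolic and 60.3% of mitochondrial members, against 33.8% of named genes and 17.2% of the table. ATGGCG, part of the YY1 motif, was searched in the same way and was present in 26.7% and 30.2%, against 16.8% and 9.25%. A match is a description of the letters and not evidence of binding.

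Values are given on the log2 scale of the normalized signal. For each gene, x was the mean over both times of log2(CF/NF) and y that of log2(RF/NF). Their common part was written as x' = (x + y)/√2, negative where both flows lay below no flow, and their difference as y' = (y − x)/√2, positive where rest-inserted flow lay above continuous flow. Time was the mean over the 3 conditions of log2(1 h/0 h). Because signals depend on the probe, levels were not compared between genes.

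No ribosomal protein gene passed the test in any comparison. With limma and Benjamini-Hochberg adjustment over 13183 named probes, 0 of 123 members had an adjusted p under 0.05 for continuous flow, rest-inserted flow, their mean, rest-inserted against continuous flow, 1 h against 0 h, or flow at either time, and the background was 0% of all named probes. At an unadjusted p under 0.05, the mean of both flows picked 2 members, Mrpl44 and Mrpl52, both lower with flow, against 6.1% of all probes, and 1 h against 0 h picked 0 members, against 10.3%. For CF against NF it picked 1 member, against 6.1%, for RF against NF 3 (Mrpl24, Mrpl44 and Mrpl52), against 5.39%, and for RF against CF 1 (Mrpl24), against 4.74%. For flow against no flow it picked 5 members at 0 h (Mrpl52, Mrpl57, Mrps15, Mrps25 and Rpl22l1), against 7.62%, and 3 at 1 h (Mrpl4, Mrps15 and Rpl39), against 6.52%. When the prior variance was allowed to follow intensity, 0 members passed after adjustment while 6 probes passed for CF and 6 for the mean of both flows (0.0455% each) and 322 for time (2.44%). At an unadjusted p under 0.05 the same setting picked 8 members for the mean of both flows, which were all lower with flow (Mrpl13, Mrpl22, Mrpl44, Mrpl49, Mrpl52, Mrps33, Mrps34 and Rps21), against 6.42% of all probes. It picked 7 members for CF, against 6.55%, 8 for RF, against 5.29%, 7 for RF against CF, against 4.5%, and 11 for time, 9 of them higher at 1 h, against 14.2%. For flow against no flow it picked 8 at 0 h, against 7.25%, and 11 at 1 h, against 5.43%, and for the difference between both times 12, against 6.12%. The model had 2 residual degrees of freedom, so the values that follow are descriptions of levels and their order.

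With both flows the medians of the mitochondrial ribosomal protein signals lay slightly below no flow, and those of the cytosolic ones lay near it. The median x' was −0.067 over the mitochondrial large subunit, with 32 of 44 genes below 0, and −0.056 over the mitochondrial small subunit, with 17 of 27 below 0, although the latter was 0.0052 without normalization. It was −0.012 over the cytosolic large subunit, with 17 of 30 below 0, and −0.0054 over the cytosolic small subunit, with 12 of 22 below 0. Over both subunits together, 49 of 71 mitochondrial genes (69.0%) and 29 of 52 cytosolic genes (55.8%) lay below 0, against 51.1% of all named genes, whose median was −0.0032.

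The 100 non-member genes nearest in mean log2 signal to each member gave a second reference. Their medians were −0.00048 for the mitochondrial and 0.0085 for the cytosolic members, with 50.5% and 46.7% of the neighbours below 0. The mitochondrial members therefore lay −0.062 from genes of like intensity and the cytosolic ones −0.017. The cytosolic probes were among the brightest on the array, with a median mean log2 signal of 13.014 against 12.519 for their neighbours, so their reference was less close: neighbours lay up to 2.09 log2 away, against 0.223 for the mitochondrial members. The difference between the ribosomes depended on the scaling. With median scaling in place of the deposited quantile normalization, x' was −0.091 over the mitochondrial members (55 of 71 below 0), −0.098 over the cytosolic members (46 of 52) and −0.020 over all named genes. Without normalization the corresponding values were −0.013, −0.020 and 0.058. Without the NF array at 1 h the mitochondrial median x' was −0.095, and it was −0.046 without the CF array at 0 h. That of the small subunit alone was −0.11 without the NF array at 1 h, −0.012 without the NF array at 0 h and −0.016 without the RF array at 0 h. Relative to genes of like intensity, the mitochondrial members lay −0.064 and the cytosolic members −0.019 away, with median scaling and without normalization alike. Median scaling multiplies each array by 1 factor, so these differences had to be equal and are no second check. With the deposited values they were −0.042 and 0.020 without the NF array at 0 h, and −0.097 and −0.038 without that at 1 h. The mitochondrial small subunit alone lay −0.0024 away without the NF array at 0 h.

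**Figure D1:**
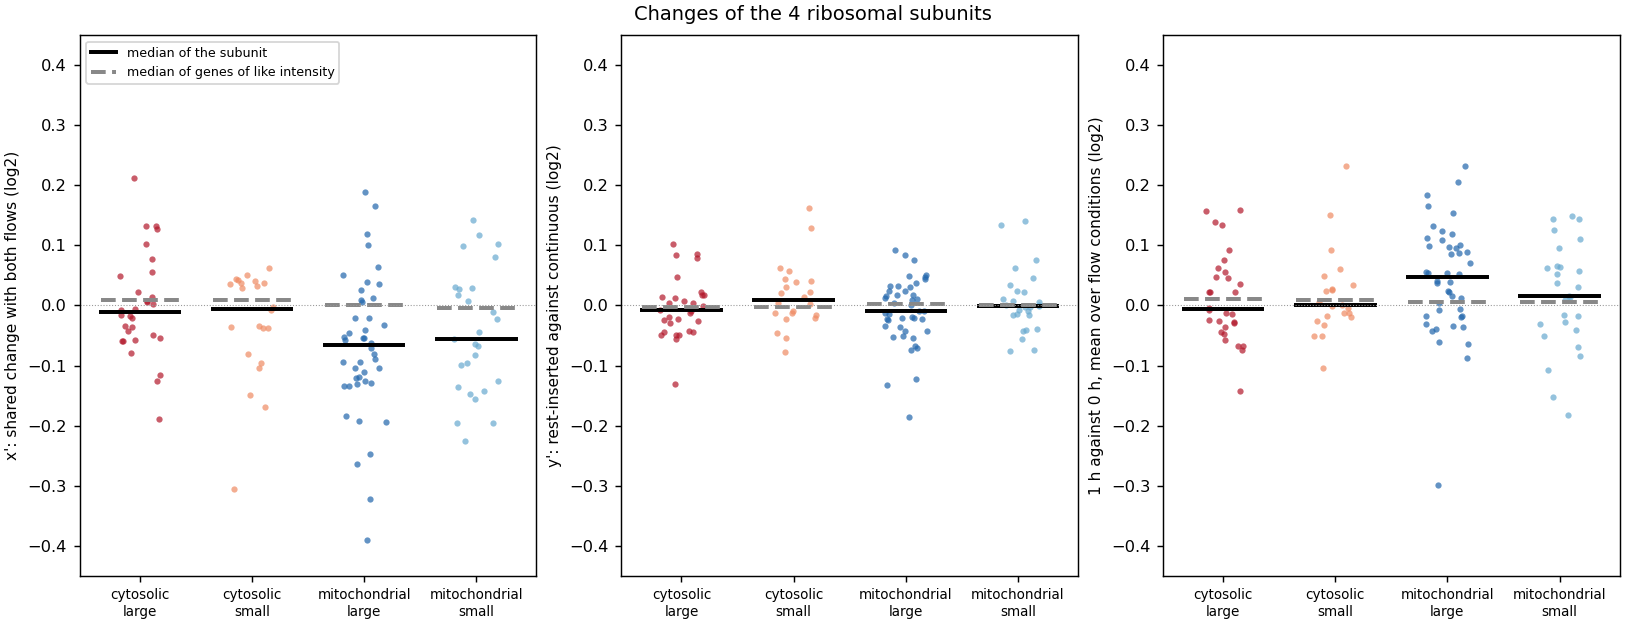
Changes of the ribosomal protein genes by subunit for x' (change common to both flows), y' (rest-inserted against continuous flow) and time (1 h against 0 h), on the log2 scale. Each point is 1 gene, the black line the median of the subunit and the grey dashed line the median of genes of like intensity. The mitochondrial subunits have median x' of −0.067 and −0.056 and the cytosolic ones −0.012 and −0.0054 (without normalization the mitochondrial small subunit has 0.0052). Under median scaling the medians are −0.11 and −0.073 (mitochondrial) and −0.098 and −0.092 (cytosolic). The spread of single genes is wider than any of the plotted medians.

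The array medians, as deviations of each gene from its own mean over the 6 arrays, place the mitochondrial shift. For the mitochondrial large subunit they were 0.017 (NF), −0.044 (CF) and −0.053 (RF) at 0 h and 0.047 (NF), 0.015 (CF) and 0.0051 (RF) at 1 h. For the mitochondrial small subunit they were 0.039, −0.024 and −0.052 at 0 h and 0.019, −0.0012 and 0.021 at 1 h, in the same order. For the large subunit both no flow arrays stood above all 4 flow arrays, whereas for the small subunit RF at 1 h stood above NF at 1 h. Of the 71 mitochondrial genes, 45 lay above their own mean on the NF array at 0 h, 20 on CF and 17 on RF, and at 1 h the numbers were 50, 41 and 42.

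With the deposited normalization the cytosolic array medians varied less. They lay between −0.015 (NF, 1 h) and 0.017 (CF, 1 h) for the large subunit and between −0.017 (CF, 0 h) and 0.014 (NF, 0 h) for the small one. Over both subunits of a ribosome the range across the 6 arrays was 0.097 for the mitochondrial members and 0.019 for the cytosolic members, beside 0.0055 for all named genes. This contrast depended on the scaling. Under median scaling the median flow/no flow log2 ratios at 0 h and 1 h were −0.077 and −0.057 (cytosolic) and −0.093 and −0.046 (mitochondrial). Without normalization they were −0.0094 and −0.014 (cytosolic) and −0.025 and −0.0029 (mitochondrial). The spread of a single gene around the fitted model was larger than most of these medians: the median residual SD was 0.051 for the cytosolic and 0.059 for the mitochondrial members.

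**Figure D2:**
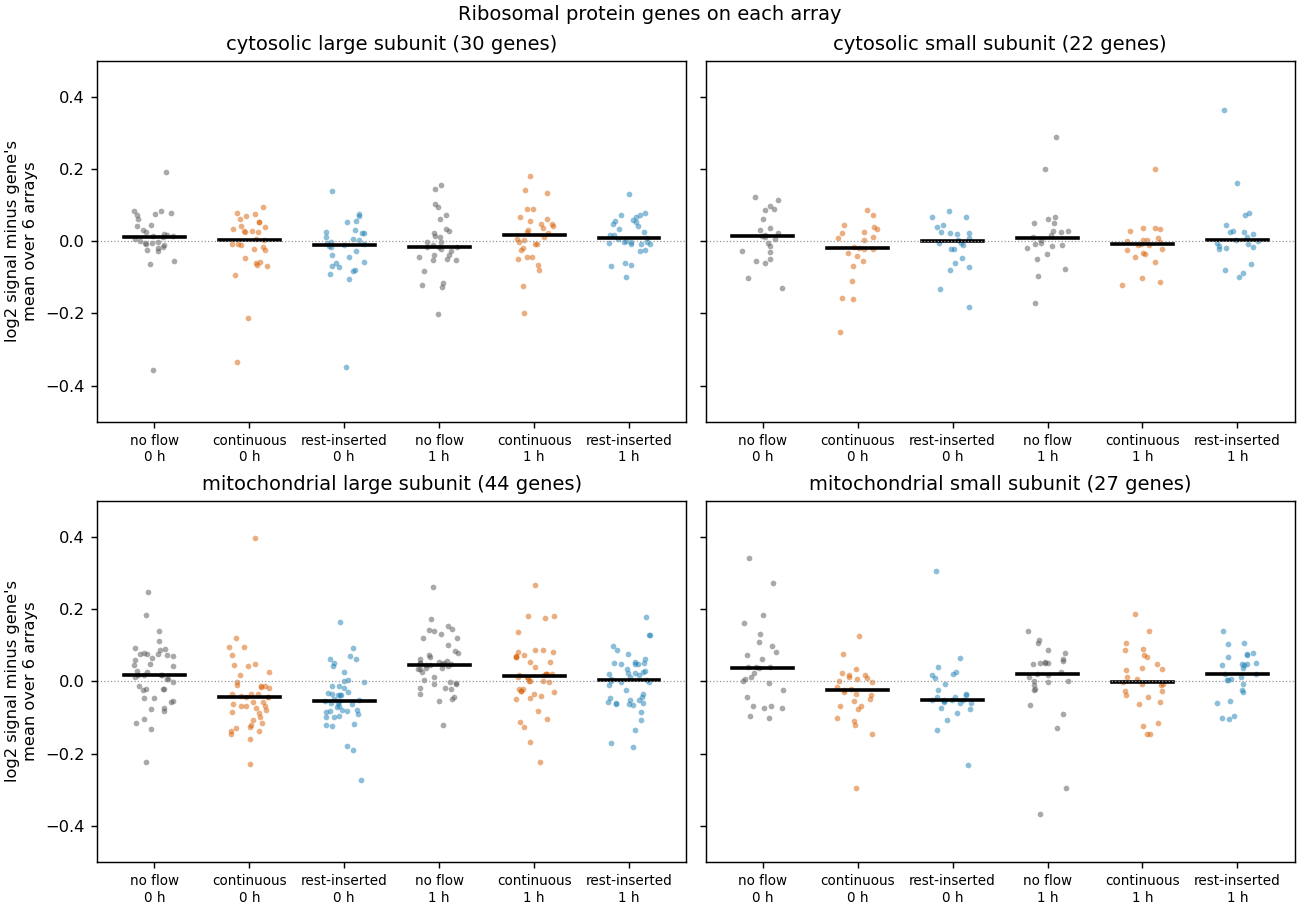
Deviation of each ribosomal protein gene from its own mean over the 6 arrays, in log2 units, for the 4 subunits by array (NF, CF and RF at 0 h and 1 h). Points are genes and black bars medians. The mitochondrial large subunit medians are −0.044 and −0.053 on the 0 h flow arrays and 0.017 and 0.047 on the no flow arrays.

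Among the large subunit genes of the mitochondrial ribosome, Mrpl52 had the lowest x'. Its log2 signal was 9.10 without flow, 8.77 with CF and 8.74 with RF at 0 h, and 8.98, 8.73 and 8.81 at 1 h. All 4 flow arrays lay below both no flow arrays, x' was −0.39 ± 0.11 (SE of the limma model), and the adjusted p for the mean of both flows was 0.760. Mrpl44, which was picked after its values were seen, has the fold of a ribonuclease III and is mutated in a human mitochondrial cardiomyopathy. It had log2 signals of 6.81, 6.56 and 6.50 at 0 h and 6.75, 6.65 and 6.49 at 1 h. Its flow arrays again did not overlap with the no flow arrays, with x' of −0.32 ± 0.11 and an adjusted p of 0.786 by limma. The highest x' of the subunit was that of Mrpl37, whose log2 signals were 8.51, 8.83 and 8.62 at 0 h and 8.78, 8.92 and 8.76 at 1 h. Here RF at 1 h lay below NF at 1 h, so the groups overlapped, and x' was 0.19 ± 0.11. A second Mrpl37 probe gave x' of −0.0086.

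In the small subunit the lowest x' was that of Mrps25, at −0.23 ± 0.23. Its log2 signals were 7.001, 6.55 and 6.55 at 0 h and 6.53, 6.77 and 6.56 at 1 h. The value came from the NF array at 0 h alone, since at 1 h both flow arrays were above NF. Mrps27, a protein of the RNA-binding pentatricopeptide repeat family, had the highest x', 0.14 ± 0.20, with log2 signals of 6.36, 6.32 and 6.14 at 0 h and 5.90, 6.19 and 6.26 at 1 h. Mrps27 likewise rested on 1 no flow array, the lowest of the 6, at 1 h.

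Mrps12, Mrpl12 and Mrps30 of the mitochondrial ribosome were named for their roles and not for their values. Mrps12 is the counterpart of the bacterial decoding centre protein in which streptomycin resistance arises, and its log2 signals were 10.27, 10.16 and 10.23 at 0 h and 10.26, 10.17 and 10.10 at 1 h. All flow arrays lay below both no flow arrays, with x' of −0.14 ± 0.10, although a second Mrps12 probe gave −0.00064. Mrpl12, the stalk protein that also binds the mitochondrial RNA polymerase, had log2 signals of 9.99, 9.80 and 9.90 at 0 h and 9.98, 9.99 and 10.02 at 1 h. It was lower with flow at 0 h and not at 1 h, and x' was −0.081 ± 0.11. Mrps30, which structures place in the large subunit but which is counted here with the small subunit by its symbol, had x' of −0.064 ± 0.11.

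Counting genes whose 4 flow arrays all lay below both no flow arrays gave 13 of 71 mitochondrial genes (18.3%), against 6.5% of all named genes and 6.38% of genes of like intensity. These were Mrpl2, Mrpl13, Mrpl17, Mrpl22, Mrpl23, Mrpl44, Mrpl46, Mrpl49 and Mrpl52 of the large subunit and Mrps9, Mrps12, Mrps24 and Mrps33 of the small one. Of 52 cytosolic genes 2 did so, Rps10 and Rps19bp1, and the like-intensity share was 3.65%. The opposite order, all flow arrays above both no flow arrays, was found in 0 of 123 members, against 6.42% of all named genes. Under median scaling the lower order counted 17 mitochondrial and 16 cytosolic members and 689 of all named genes, and without normalization 7, 1 and 272, with 4 mitochondrial members and 1004 of all 8566 named genes in the opposite order.

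The following 5 genes were picked from that list after their values were seen. Mrpl22 had log2 signals of 8.70, 8.47 and 8.55 at 0 h and 8.80, 8.63 and 8.62 at 1 h. Mrpl13 had 10.88, 10.81 and 10.69 at 0 h and 10.92, 10.67 and 10.73 at 1 h. For both, all flow arrays were lower at either time, with x' of −0.26 ± 0.098 and −0.25 ± 0.11, and a second Mrpl13 probe gave −0.17. Mrps33 had 11.05, 10.89 and 10.90 at 0 h and 11.04, 10.84 and 11.002 at 1 h, with x' of −0.20 ± 0.10. Its second probe went the other way, at 0.071. Mrpl49 had 9.34, 9.07 and 9.13 at 0 h and 9.24, 9.22 and 9.20 at 1 h, with x' of −0.19 ± 0.12, and its other 3 probes gave −0.064, 0.019 and −0.10. Rps10, which lies where mRNA enters the cytosolic small subunit, had 13.10, 13.05 and 12.99 at 0 h and 13.07, 13.05 and 12.98 at 1 h, a narrow order with x' of −0.095 ± 0.095. Over all members with several probes, 32 of 57 further probes had the sign of the chosen probe for x' and 35 of 57 for time.

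**Figure D3:**
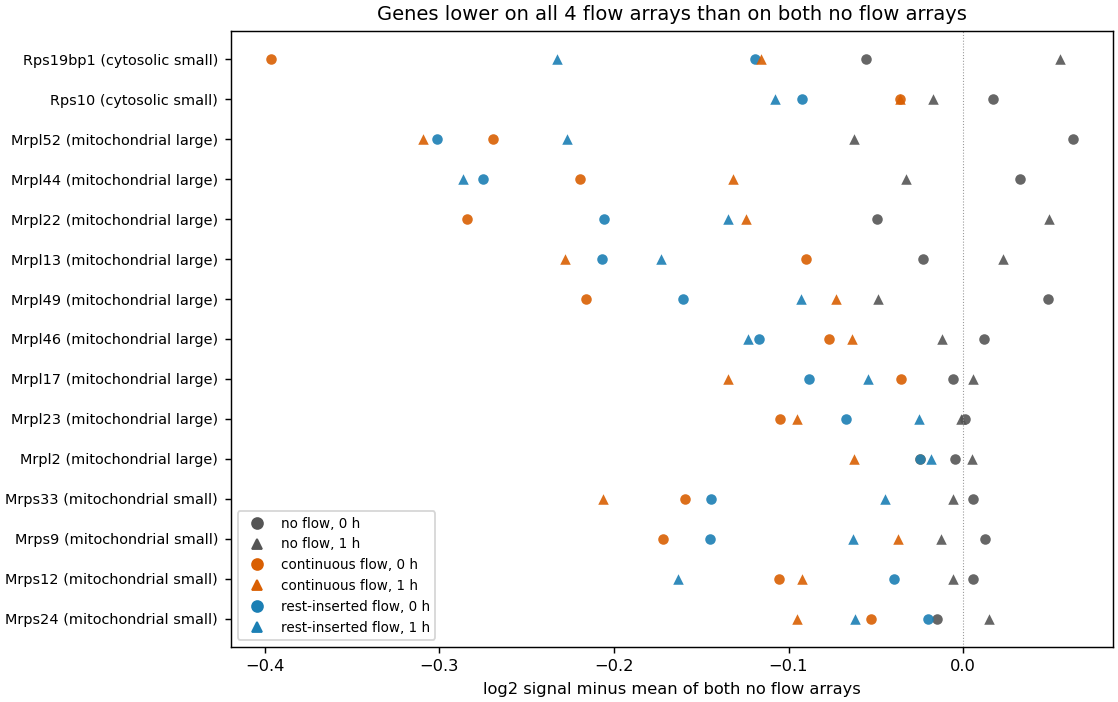
The 15 ribosomal protein genes, 13 mitochondrial and 2 cytosolic, whose 4 flow arrays all lay below both no flow arrays. The axis is the log2 signal less the mean of the no flow arrays, circles are 0 h and triangles 1 h, and colours give the flow condition. Mrpl52 and Mrpl44 have the lowest x', −0.39 and −0.32, and Rps10 has −0.095.

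In the cytosolic large subunit the lowest x' belonged to Rpl7a and the highest to Rpl22l1. Rpl7a had log2 signals of 10.95, 10.71 and 10.41 at 0 h and 10.74, 10.90 and 10.83 at 1 h. Both flow arrays lay below NF at 0 h and above it at 1 h, so x' of −0.19 ± 0.21 joined opposite orders, and it was 0.18 without the NF array at 0 h. Rpl22l1 had 4.14, 4.54 and 4.57 at 0 h and 4.65, 4.58 and 4.49 at 1 h, near the floor of 3.32 on this scale. Its x' was 0.21 ± 0.21, and leaving out the NF array at 0 h, the lowest of the 6, gave −0.16.

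In the cytosolic small subunit Rps19bp1, the Rps19-binding protein also known as a regulator of the deacetylase Sirt1, had the lowest x', −0.31 ± 0.15. Its log2 signals were 6.48, 6.14 and 6.42 at 0 h and 6.59, 6.42 and 6.30 at 1 h, and all 4 flow arrays lay below both no flow arrays. Rps19 itself, the gene most often mutated in Diamond-Blackfan anaemia, had the highest x' of the subunit, 0.063 ± 0.13, with 13.69, 13.84 and 13.68 at 0 h and 13.75, 13.71 and 13.83 at 1 h. Its flow and no flow arrays overlapped, and a second, dimmer Rps19 probe gave x' of −0.40. Rps6, the substrate of the S6 kinases, had 12.64, 12.69 and 12.64 at 0 h and 12.61, 12.62 and 12.67 at 1 h. Its flow and no flow arrays overlapped, and x' was 0.041 ± 0.10. Rpl23, which can bind Mdm2 when it is free of the ribosome, had x' of 0.015 ± 0.10, and Rps3, a protein of the mRNA entry channel, −0.0029 ± 0.12.

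Several members have a close relative, and these pairs were compared side by side. In mice Rpl22 represses the mRNA of Rpl22l1. Rpl22 had log2 signals of 9.28, 9.36 and 9.42 at 0 h and 9.29, 9.08 and 9.26 at 1 h. Rpl22 was higher with both flows at 0 h and lower at 1 h, as was Rpl22l1, with mean flow/no flow log2 ratios of 0.11 and −0.12 for Rpl22 and 0.42 and −0.12 for Rpl22l1. Rpl36a and Rpl36al, which encode nearly identical proteins, had x' of −0.034 ± 0.19 and −0.054 ± 0.095. Rps27l, a p53 target, had 0.032 ± 0.11, Rpl39, which lines the exit tunnel, had 0.13 ± 0.14, and Rpl7l1 had 0.13 ± 0.14. The 3 homologues of bacterial S18, which structures place in different positions of the mitochondrial ribosome, had x' of 0.017 (Mrps18a), 0.10 (Mrps18b) and 0.031 (Mrps18c), each with an SE of 0.10 to 0.11. Cytosolic ribosomal protein genes have many processed pseudogenes, and their part in the signals was not tested.

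The flow difference was compared between both times. At 0 h the mitochondrial median of the mean flow/no flow log2 ratio was −0.067, with 52 of 71 genes below 0 (73.2%, against 50.9% of all named genes), and at 1 h it was −0.035, with 45 of 71 below 0 (63.4%, against 50.6%). Taken singly, the median ratio at 0 h was −0.062 for CF, with 47 of 71 genes below 0 (50.7% of all named genes), and −0.066 for RF, with 50 of 71 below 0 (49.9%). At 1 h it was −0.036 for CF and −0.028 for RF, each with 43 of 71 below 0 (50.8% and 49.6%). By subunit the large one had −0.059 at 0 h and −0.039 at 1 h, and the small one −0.078 and −0.0087, the last of which was 0.016 without normalization. Of the 71 mitochondrial genes, 19 (26.8%) were below no flow in all 4 ratios, against 12.6% of all named genes, and 3 (Mrpl3, Mrps7 and Mrps18b) were above it in all 4, against 11.9%. Both times used a single no flow array each, and the ratios of CF and RF at a time shared it.

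The cytosolic members had a median of −0.020 at 0 h, with 33 of 52 below 0, and of 0.0078 at 1 h, with 23 of 52 below 0, the latter being −0.057 under median scaling and −0.014 without normalization. A pattern of lower signal at 0 h and higher signal at 1 h with both flows was found in 11 of 52 cytosolic genes (21.2%), against 11.5% of all named genes and 8.13% of genes of like intensity. The opposite pattern was found in 5 of 52 (9.62%), against 11.2% and 9.44%. These patterns were not counted under the other scalings. Under median scaling 40 of 52 cytosolic genes lay below no flow at 1 h. The difference of the flow ratio between both times was tested in the time by flow model with limma, in which CF and RF served as each other's repeat, and 0 of 123 members passed after adjustment, with a background of 0%. At an unadjusted p under 0.05 it picked 7 members, against 7.15% of all probes. Missing the threshold does not show that the times were alike. The widest difference was that of Mrps15, which was picked for it after its values were seen, with log2 signals of 5.88, 5.47 and 5.56 at 0 h and 5.24, 5.80 and 5.72 at 1 h. Flow lay below no flow at 0 h and above it at 1 h, and the no flow arrays were the highest and the lowest of the 6.

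**Figure D4:**
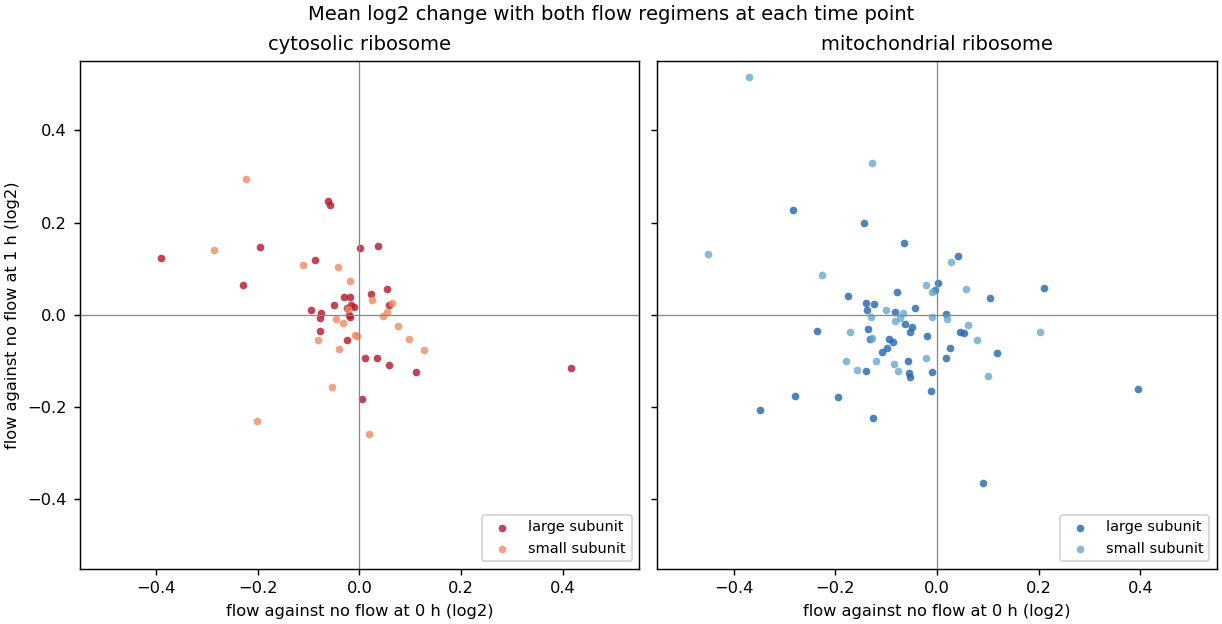
Mean flow/no flow log2 ratio at 0 h (horizontal axis) and 1 h (vertical axis) for each cytosolic and each mitochondrial ribosomal protein gene, with large and small subunits in different colours. With the deposited normalization mitochondrial genes lie below 0 in 52 of 71 cases at 0 h and in 45 of 71 at 1 h. Cytosolic genes lie below 0 in 33 of 52 and 23 of 52. Under median scaling the counts are 56 and 51 (mitochondrial) and 45 and 40 (cytosolic). Without normalization they are 40 and 37 (mitochondrial) and 31 and 29 (cytosolic).

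Rest-inserted and continuous flow differed little in the medians of either ribosome. Median y' was −0.0079 over the cytosolic large, 0.0089 over the cytosolic small, −0.0093 over the mitochondrial large and −0.00059 over the mitochondrial small subunit, beside 0.0012 over all named genes. Both RF arrays lay above both CF arrays in 17 of 123 members and below them in 16 of 123, against 14.4% and 13% of all named genes. Under median scaling the median y' of the cytosolic small subunit was −0.0042 and so on the other side of 0. Mrpl24 had the lowest y' of the mitochondrial large subunit. Its log2 signals were 8.59, 8.61 and 8.30 at 0 h and 8.55, 8.54 and 8.31 at 1 h. Both RF arrays lay below the other 4, y' was −0.19 ± 0.056, and the limma p for RF against CF was 0.028 unadjusted and 0.999 adjusted. Mrpl53 had the highest y' of that subunit, 0.092 ± 0.056, with 10.36, 10.25 and 10.38 at 0 h and 10.23, 10.18 and 10.32 at 1 h. RF lay above CF at both times for this gene.

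In the mitochondrial small subunit y' ran from −0.077 ± 0.088 (Mrps21) to 0.14 ± 0.080 (Mrps2). In the cytosolic large subunit it ran from −0.13 ± 0.12 (Rpl7a) to 0.10 ± 0.11 (Rpl21), and in the small one from −0.077 ± 0.12 (Rps3a1) to 0.16 ± 0.13 (Rps25). Rps25, a protein used by several viral internal ribosome entry sites, had log2 signals of 11.71, 11.44 and 11.41 at 0 h and 11.58, 11.48 and 11.96 at 1 h. Its y' came from the RF array at 1 h, the highest of the 6, since RF and CF were close at 0 h. Rpl21 had 6.96, 6.55 and 6.91 at 0 h and 6.92, 7.02 and 6.95 at 1 h, with the CF array at 0 h below the other 5. Further Rpl21 probes gave y' of −0.082 and −0.091, with the opposite sign.

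Between 0 h and 1 h the mitochondrial large subunit was slightly higher at 1 h and the other subunits lay near 0. The median of log2(1 h/0 h) was 0.047 for the mitochondrial large subunit, with 30 of 44 genes above 0, and 0.015 for the mitochondrial small subunit, with 16 of 27 above 0. It was −0.0057 for the cytosolic large and 0.00037 for the cytosolic small subunit, and 0.0022 for all named genes, of which 50.8% lay above 0. Without normalization all named genes had a median of −0.036, the mitochondrial large subunit had 0.0077 and the small subunit −0.012. Median scaling gave the cytosolic large subunit 0.018, on the other side of 0. Without either CF array the mitochondrial large subunit had 0.023, and without either RF array the small subunit had 0.00077. By condition, the mitochondrial large subunit had medians of 0.028 (NF), 0.059 (CF) and 0.062 (RF), and the small subunit −0.012, 0.013 and 0.073. A higher signal at 1 h in all 3 conditions was found in 22 of 71 mitochondrial genes (31.0%), against 17.4% of all named genes, and a lower one in 6 of 71, against 18.1%. All 1 h arrays lay above all 0 h arrays in 10 of 71 mitochondrial genes (14.1%), against 9.57% of all named genes and 12.1% of genes of like intensity. All 1 h arrays lay below all 0 h arrays in 3 of 71 (4.23%: Mrpl10, Mrps5 and Mrps28), against 9.84% and 10.8%. The latter order was found in 0 of 52 cytosolic genes, against 12.7% of genes of like intensity.

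The lowest p for time belonged to Mrpl38. Picked for that p after its values were seen, it had log2 signals of 9.62, 9.58 and 9.69 at 0 h and 9.87, 9.79 and 9.77 at 1 h. The times did not overlap, the change was 0.18 ± 0.072 and the adjusted limma p was 0.497. Mrps7, a protein of the small subunit that contacts the ribosomal RNA, was singled out for its small spread, with 9.57, 9.62 and 9.63 at 0 h and 9.69, 9.75 and 9.74 at 1 h. Its change was 0.13 ± 0.063 in the same direction in all 3 conditions. Mrpl51 had the highest mean change of the mitochondrial large subunit, 0.23 ± 0.12, and Mrpl57 the lowest, −0.30 ± 0.15. Further Mrpl51 probes gave −0.11 and 0.29, the latter probe being detected on 3 arrays. Mrpl57 gave a dim signal, with 4.70, 5.21 and 4.98 at 0 h and 4.77, 4.59 and 4.63 at 1 h, and its NF arrays did not share the order of its flow arrays.

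In the mitochondrial small subunit the change over time ran from −0.18 ± 0.094 (Mrps5) to 0.15 ± 0.079 (Mrps23). In the cytosolic large subunit it ran from −0.14 ± 0.086 (Rpl22) to 0.16 ± 0.13 (Rpl21). In the cytosolic small subunit it ran from −0.10 ± 0.070 (Rps21) to 0.23 ± 0.096 (Rps15a). Rps15a had log2 signals of 5.04, 5.01 and 5.11 at 0 h and 5.46, 5.07 and 5.33 at 1 h. The CF array at 1 h lay among the 0 h arrays.

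Genes that make or serve the ribosomes were described from lists set beside the members. Of 62 listed ribosome biogenesis factors, which process ribosomal RNA and assemble subunits in the nucleolus, 49 were measured. Their median log2(1 h/0 h) was 0.10, with 41 of 49 above 0, and 0.12 under median scaling and 0.070 without normalization. With limma's constant prior 0 of 49 passed after adjustment. With the prior following intensity 3 rose at 1 h: Nop56 (adjusted p = 0.0308), a core protein of the box C/D small nucleolar particles, Bop1 (0.0447), a large subunit processing factor, and Pno1 (0.0487), a small subunit assembly factor, against 2.44% of all probes. All 1 h arrays lay above all 0 h arrays in 17 of the 49 (34.7%), against 9.57% of all named genes. Of the 52 cytosolic ribosomal protein genes 1 showed this order (1.92%), Rpl36al, against 16.4% of genes of like intensity. The share among genes of like intensity was not computed for the biogenesis list.

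Cytosolic translation factors (37 of 46 listed were measured) had a median time change of 0.066, with 28 of 37 above 0, and a median x' of −0.028, the former being 0.034 without either RF array and the latter 0.0056 without normalization. With the prior following intensity, 1 of the 37 passed for time, against 2.44% of all probes. This was Eif6 (limma adjusted p = 0.0298), higher at 1 h, which keeps free large subunits from joining small ones. The S6 kinases and TOR pathway (14 of 22 measured) had medians of 0.017 for x' and 0.043 for time, but x' was −0.067 without the CF array at 1 h, −0.050 and −0.035 without the NF and the RF array at 0 h and −0.0090 under median scaling, and time was −0.022 without either NF array. The mitochondrial translation factors (12 of 13 measured) and mitochondrial ribosome assembly factors (17 of 23 measured) had median x' of −0.064 and −0.048. Both medians turned with single arrays and with the scaling: the translation factors had 0.094 without the NF array at 1 h, the assembly factors 0.029 without the NF array at 0 h, 0.013 without the CF array at 0 h and −0.13 without the NF array at 1 h, and without normalization they had 0.015 and 0.012. The respiratory chain and ATP synthase, whose mitochondrially encoded subunits are the products of the mitochondrial ribosome, had a median x' of −0.048 over 69 nuclear genes, with 43 below 0, which was −0.018 without the NF array at 0 h, −0.091 under median scaling and −0.013 without normalization. Of these, 9 had all flow arrays below both no flow arrays, against 6.5% of all named genes. With the prior following intensity, 1 of the 69 passed for time, against 2.44% of all probes. It was Ndufa1 (limma adjusted p = 0.0298), which was lower at 1 h.

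**Figure D5:**
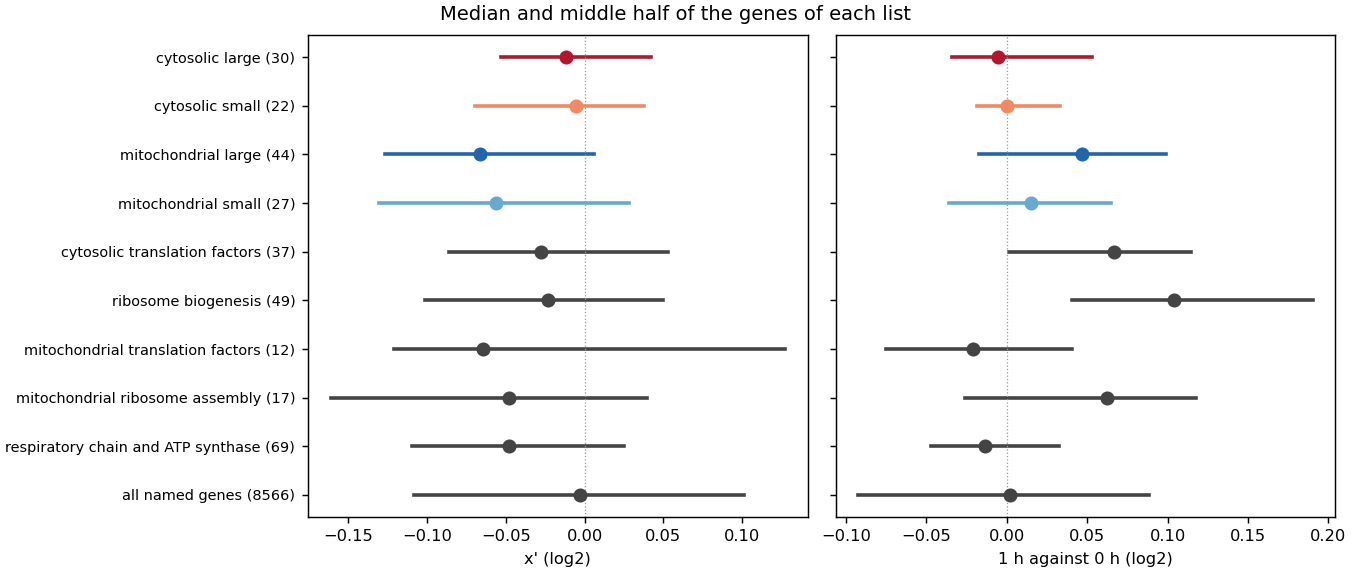
Median (point) and middle part from the lower to the upper quartile (line) of x' and of log2(1 h/0 h) for the ribosomal protein subunits, the lists of related genes and all named genes, in log2 units. The mitochondrial subunits lie lowest in x' among the ribosomal proteins, an order that median scaling changes (−0.11 and −0.073 against −0.098 and −0.092 for the cytosolic subunits), and the ribosome biogenesis list has a median time change of 0.10, above that of each subunit.

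The members were also divided by their promoter letters, as a description with no test. Cytosolic members with a run of 8 or more C or T over the start had a median x' of −0.014 (10 genes) and those without it −0.0029 (35 genes). Mitochondrial members with CGGAAG had a median x' of −0.055 (38 genes) and those without it −0.068 (25 genes). For time the mitochondrial medians were 0.059 with CGGAAG, with 10 of 38 genes below 0, and 0.0035 without it, with 12 of 25 below 0. The sequence CTTTCC, searched on the gene's own strand within 25 bases of the start, where it can lie inside a run of C and T, was present in 6 of 45 cytosolic members (13.3%), against 2.2% of named genes. These 6 (Rpl4, Rpl13a, Rpl28, Rpl35, Rpl38 and Rps10) had a median x' of 0.063 and a median time change of −0.025, with 6 of 6 below 0 for time. The other 39 cytosolic members had −0.0080 and 0.022, with 18 of 39 below 0 for time. Whether any of these groups differ was not tested.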

How the data were processed

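RNA pooled from 3 experiments was hybridised to 1 array per condition (Illumina mouse whole-genome, version 2). The authors scanned the arrays on a HiScanSQ and subtracted background with GenomeStudio. The first deposited table holds this background-subtracted intensity, not normalized between arrays, and a detection p-value for each of 45281 probes. The authors' second deposited table holds log2 values of 15686 probes, made with the lumi package. Quantile normalization of the intensities, a floor of 10 and log2 gave the same values (largest difference 5.0e-08), and the table is limited to probes detected at p under 0.01 on at least 1 array. The detection column of the array of rest-inserted flow at 1 h held p-values in 20000 rows and repeated the signal in 25281, which leaves 2 probes of uncertain detection.

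Probes were named by the platform annotation, and 13183 had 1 gene symbol, while 8 had several, 2285 had none and 210 had RIKEN clone names, which were left out. Of the named probes, 13175 had an Entrez ID in the RefSeq gene table (GRCm38.p6). limma 3.58.1 in R 4.3.3 fitted flow condition and time as additive terms over all 6 arrays (2 residual degrees of freedom). A time by flow model treated CF and RF as each other's repeat and assumed that the lone no flow array varied likewise. Adjustment was by the Benjamini-Hochberg method, with calls at 0.05. The SE of x' and y' came from the same fit. The models were tested on simulated data. Alternatives were a prior that followed intensity, median scaling, no normalization, an offset of 16, no term for time, only probes detected on all 6 arrays, the mean of all probes of a gene, and leaving out each array. Their effect is given in the closing section. The number of arrays limits the precision.

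The genes named were, for each subunit, the members with the highest and lowest x', y' and time change, any called member, and a set chosen for their roles or close relatives. The members and lists were chosen with earlier results of these data known. Exceptions are named where they appear. Of the genes chosen for their roles, Rpl5, Rpl7, Rpl11, Rps27, Rpl39l and Mrpl41 were not analysed here. Python 3.11.15 with numpy 2.4.6, pandas 2.3.3 and matplotlib 3.10.9 served for summaries and plots.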

Additional observations from a re-analysis of the deposited data

Results flagged for a closer look

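The cytosolic large subunit lay on opposite sides of no flow at 0 h and 1 h. Its median log2(CF/NF) was −0.012 at 0 h and 0.029 at 1 h, and its median log2(RF/NF) was −0.043 at 0 h and 0.0047 at 1 h. This difference between the times was not tested for the subunit. Each time rests on 1 no flow array, which CF and RF share. Under median scaling the mean of both ratios at 1 h had a median of −0.030, below no flow as at 0 h.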

How the results depend on the processing

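No paired analysis was possible because the labels give no replicate numbers and each condition has 1 array. No ribosomal protein gene passed in any of 8 comparisons under the alternatives tried (98 counts, each 0). Among all named probes, a prior that followed intensity called 6 for CF, 6 for the mean of both flows and 322 for time, and with 1 array also left out, an alternative chosen after seeing the data, 0 to 15, 0 to 8 and 13 to 113 (CF 15 without NF at 1 h and 2 without CF at 1 h, time 109 and 113 without either NF array, 19 without either CF array and 13 without either RF array). Of 132 subunit medians 45 moved by more than the residual SD of the array medians around the additive flow and time model. Some of the 132 could not move. All members were detected on all 6 arrays, so that filter removed none of them, and y' does not use the no flow arrays. Median scaling gave the cytosolic large subunit x' −0.098, y' −0.026 and time 0.018, the cytosolic small subunit −0.092, −0.0042 and 0.016, and the mitochondrial large subunit x' −0.11 and time 0.060. No normalization gave time −0.034 for the cytosolic large subunit, −0.014, −8.57e-05 and −0.036 for x', y' and time of the cytosolic small subunit, x' −0.028 and time 0.0077 for the mitochondrial large subunit and x' 0.0052 for the mitochondrial small subunit. The mean of all probes gave x' −0.033 and y' 0.0037 for the cytosolic small and x' −0.087 for the mitochondrial large subunit. The causes of these shifts were not tested.

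With 1 array left out, x' ran from −0.028 to 0.027 (cytosolic large), −0.033 to 0.00019 (cytosolic small), −0.094 to −0.046 (mitochondrial large) and −0.11 to −0.012 (mitochondrial small), y' of the cytosolic small subunit from 0.0044 to 0.021, and time from −0.0095 to 0.013 (cytosolic small) and 0.023 to 0.067 (mitochondrial large). The mitochondrial small subunit was lowest without the no flow array at 1 h and highest without that at 0 h. Of 351 values of single named genes 309 kept their sign and 42 changed it, 34 of them with an array left out. Keeping the sign says nothing of size: the time change of Rpl21 ran from 0.0025 to 0.26 with 1 array left out. The prior that followed intensity is among the settings counted, and it cannot change these values. In 41 of the sign changes at least 1 of the compared values lay within its SE. In the other 1, x' of Rpl22l1, both values exceeded it. That x' was −0.16 without the no flow array at 0 h and 0.588 without that at 1 h. One array per condition sets the limit: no spread within a condition was measured.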
